A study of Mus musculus with 40 samples.

Results

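Transcripts of 10 transcription factor genes that mark cardiac fibroblasts or their activated states, *Tcf21*, *Gata4*, *Gata6*, *Hand2*, *Tbx20*, *Tbx18*, *Wt1*, *Meox1*, *Runx1* and *Scx*, were followed in mouse cardiac fibroblasts with and without TAK1 inactivation. The members were taken by gene symbol and are 10 of the 25210 genes tested. The cells came from naïve adult TAK1fl/fl animals (C57BL/6J), had grown in serum and bFGF, and were treated at their first passage. All 40 libraries therefore come from cells with the floxed allele, in which LoxP sites flank an exon of *Map3k7*, the gene for TAK1, and from cells that carried an adenovirus. The virus expressed either Cre recombinase (iCre) or the control protein LacZ from the CMV promoter. After serum starvation, cells were left without ligand (CTRL) or given a ligand for 24 h: bFGF at 20, IL-1β at 15, and either TGFβ or TNFα at 10 ng/ml, with 4 replicates in each of the 10 groups. Effects of Cre itself and of TAK1 loss cannot be told apart, since no group had Cre without the floxed allele. The comparisons address how the fibroblast phenotype depends on TAK1, a kinase downstream of cytokine receptors.

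Transcription factors bind short DNA sequences and set which genes a cell type transcribes. Tcf21 and Hand2 are basic helix-loop-helix (bHLH) factors, Gata4 and Gata6 are zinc-finger factors, and Tbx20 and Tbx18 are T-box factors. All of them act in heart development, and cardiac fibroblasts, most of which descend from the epicardium, keep expressing many of them, which distinguishes them from fibroblasts of other organs. Tcf21, Tbx18 and the zinc-finger factor Wt1 mark the epicardium and its descendants. Meox1 (a homeobox factor), Runx1 (a Runt factor) and Scx (scleraxis, a bHLH factor of tendon) are known from fibroblasts that have been activated towards matrix production.

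Gene counts summed to between 25360947 and 66160732 per library (median 36183962). Levels are given as CPM, counts scaled to the library total after TMM normalization. Without ligand *Map3k7* averaged 153 ± 6.51 CPM (LacZ) and 127 ± 4.27 CPM (iCre; SD, n = 4), and its counts include exons outside the floxed part. It fell in iCre with TGFβ, IL-1β and TNFα (log2 fold change −0.67, −0.82 and −0.71) and was lower in 4 of 4 same-numbered pairs in CTRL and with bFGF. Defining fibroblast markers were abundant, with the 9 genes of that list summing to between 15345 and 69654 CPM in each library. Summed markers of endothelial cells (4 genes) stayed between 3.84 and 26.1 CPM, of mesothelium (8 of 9 genes tested) between 1.59 and 14.3 CPM, of cardiomyocytes (4 of 5 genes tested) between 0.597 and 111 CPM and of leukocytes (5 genes) between 16.3 and 156 CPM. Mural cell markers (8 genes) summed to between 149 and 2054 CPM. Libraries with the same replicate number deviated together from their group means, so a fit with the replicate number as a block stands beside each member's result whose call it changes and each list count that it moves by over 1.5 times, and p-values without that name come from the fit without it. In bulk RNA, fewer cells of a type and less RNA per cell cannot be told apart.

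Replicate 2 was the lowest in every group for most of the members. *Tcf21*, *Gata4*, *Gata6*, *Hand2*, *Tbx20* and *Tbx18* were lowest in replicate 2 in 10 of 10 groups. In some groups the gap was small, as for *Gata6* with TGFβ in iCre (70.7 CPM in replicate 2 and 71.2 CPM in replicate 4). Of the 10774 genes averaging 5 CPM or more, 5.03% had replicate 2 lowest in all 10 groups. Averaged over the groups on the log2 scale, replicate 2 lay below the other replicates by 1.77 for *Hand2*, a difference of −1.77, and the differences were −1.61 for *Tbx20*, −1.5 for *Tcf21*, −1.12 for *Gata4*, −0.60 for *Tbx18* and −0.49 for *Gata6*. A difference below −1 was found for 2.01% of those genes. Related factors were split. Of the 15 paralogs tested, *Gata3* and *Hand1* were lowest in replicate 2 in 10 of 10 groups like the members, and *Tcf23*, *Meox2* and *Msc* in 9, 8 and 7, whereas others were highest there. In the LacZ CTRL libraries *Tbx4*, a T-box factor of limb and lung mesenchyme, was at 56.5 CPM in replicate 2 and at 2.39, 4.06 and 1.42 CPM in replicates 1, 3 and 4. *Tbx2*, *Tbx3* and *Tbx5* were highest in replicate 2 in 10 of 10 groups as well, at mean levels of 34.2, 49.3 and 26.9 CPM against at most 8.99, 5.45 and 6.39 CPM for any other replicate number. *Foxf1*, a forkhead factor of visceral and lung mesenchyme, averaged 62.3 CPM in replicate 2 and 18.4 to 24.3 CPM in the others. Of the 9 fibroblast markers, *Pdgfra* was highest in replicate 2 in 10 of 10 groups and *Vim* and *Dcn* lowest in 9, and the sum of the list was lowest there in 6 of 10. The summed cardiomyocyte markers were lowest there in 10 of 10 groups, and the mural cell markers and the leukocyte and macrophage markers in 9 of 10 each, while the endothelial markers were highest there in 6 of 10. These sums follow their most abundant genes, and single markers went both ways. *Tnnt2*, *Rgs5* and *Lyz2* were lowest in replicate 2 in 10, 10 and 9 groups, whereas *Myl2*, *Cnn1* and *Cd68* of the same lists were highest there in 7, 9 and 6. Of the endothelial markers, *Tek* was lowest there in 8 groups and *Cdh5* highest in 10. The genes named here for replicate 2, other than the members, were singled out after their values had been seen. The part of these differences in the results below was not tested. Values without replicate 2 are given where they bear on a result.

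**Figure D1:**
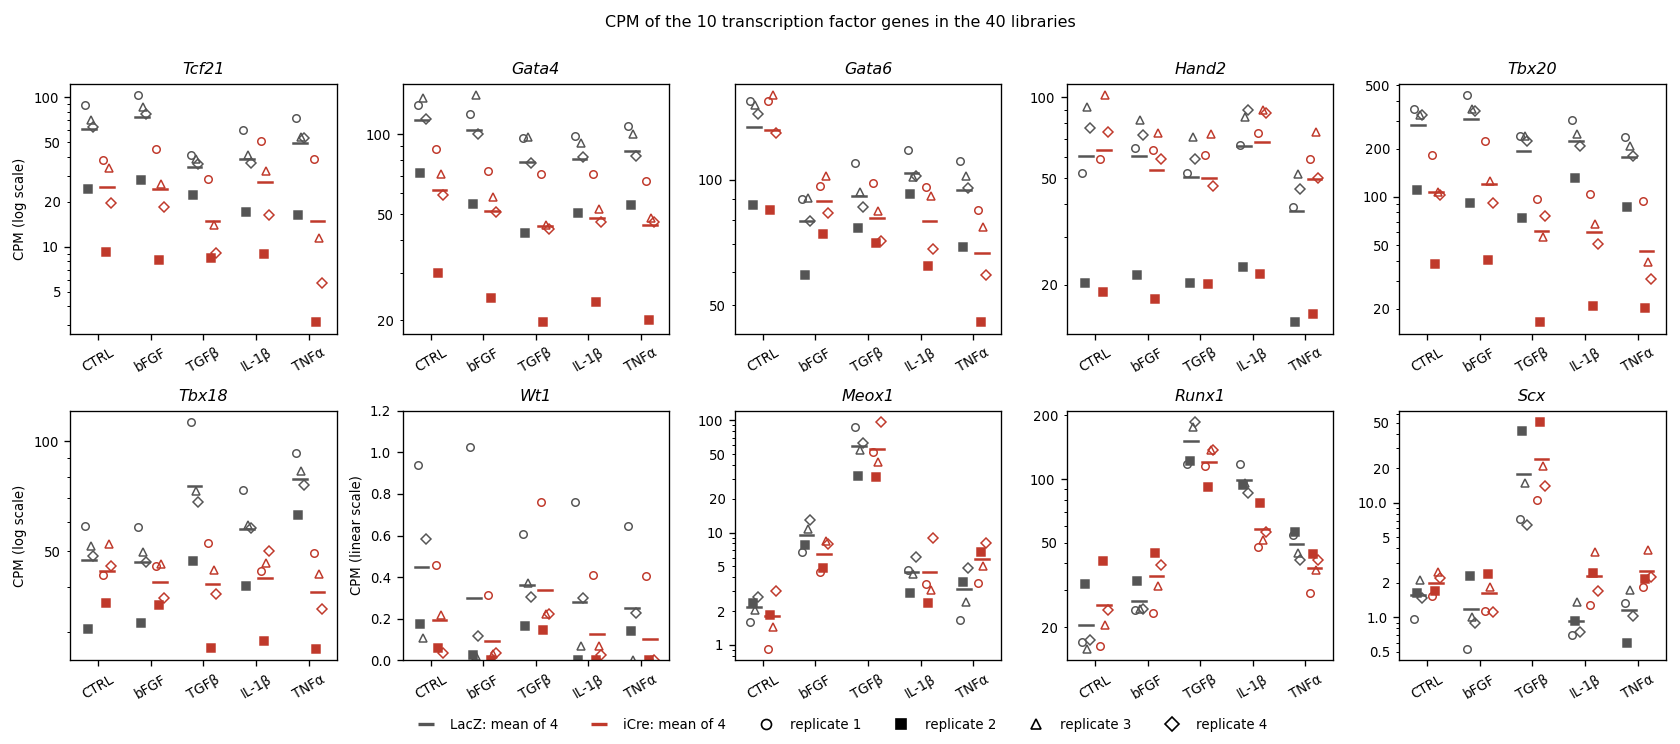
CPM of each of the 10 genes in the 40 libraries, by treatment on the horizontal axis and by virus (grey LacZ, red iCre); horizontal bars are means of 4 libraries and each marker shape is a replicate number, with replicate 2 filled. The vertical axis is logarithmic and differs between panels, except for *Wt1*, which has a linear axis. Filled squares are lowest in every group for *Tcf21*, *Gata4*, *Gata6*, *Hand2*, *Tbx20* and *Tbx18*, and *Meox1*, *Runx1* and *Scx* stand highest with TGFβ.

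Per kilobase of exon, the LacZ CTRL libraries held similar levels of the 5 lineage factors *Gata4*, *Tcf21*, *Hand2*, *Tbx20* and *Gata6*. Their means were 28.9, 26.2, 25.7, 23.4 and 20.6 CPM per kb, with SDs between 4.85 and 13.4 (n = 4), so that their order is within the spread. *Tbx18* followed at 10.1 ± 2.54 CPM per kb. *Runx1* (1.71 ± 0.635), *Meox1* (0.975 ± 0.203) and *Scx* (0.775 ± 0.240 CPM per kb) were below the range of each of the first 5. With TGFβ in LacZ libraries, *Meox1* reached 26.5, *Runx1* 12.5 and *Scx* 8.87 CPM per kb, whereas *Tcf21* was at 14.7 and *Gata4* at 20.2 CPM per kb. *Wt1* was at 0.0727 CPM per kb.

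The share of the variance of log2 CPM that went with the replicate number was high for the genes low in replicate 2 and for *Wt1*. It was 89.6% for *Hand2*, 66.4% for *Wt1*, where replicate 1 was highest, 49.3% for *Gata4*, 42.0% for *Tcf21*, 36.8% for *Tbx18*, 35.7% for *Gata6* and 35.4% for *Tbx20*, and 6.42%, 4.06% and 2.41% for *Scx*, *Meox1* and *Runx1*. The median gene of the 10774 had 8.38% with the replicate number and 78.0% with the group. For *Meox1*, *Runx1* and *Scx* the group of virus and ligand held 92.0%, 91.2% and 84.8%, and for *Hand2* it held 7.74%.

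**Figure D2:**
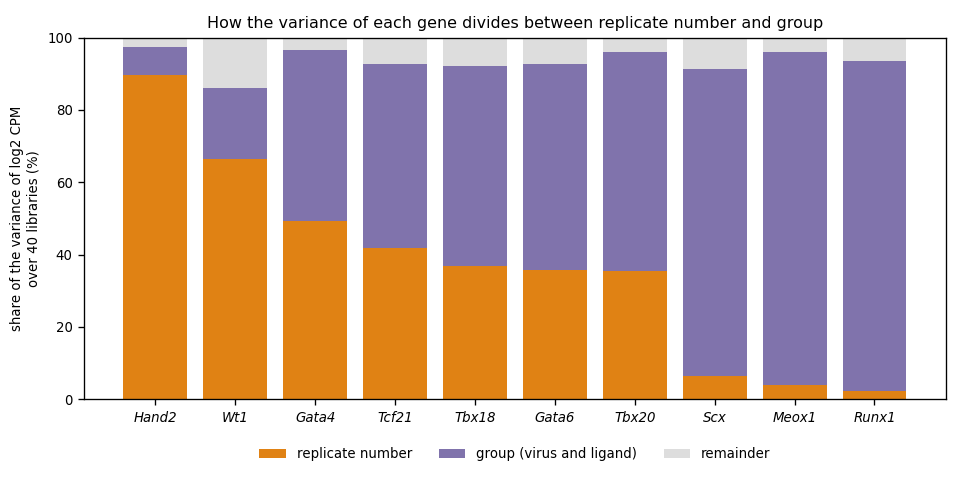
Share (%) of the variance of log2 CPM over the 40 libraries that went with the replicate number (orange), the group of virus and ligand (purple) and the remainder (grey) for each gene. *Hand2* is mostly orange at 89.6%, and *Meox1*, *Runx1* and *Scx* are mostly purple.

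*Tcf21* (ENSMUSG00000045680, chr10:22817281-22820174, minus strand of GRCm38), *Gata4* (ENSMUSG00000021944, chr14:63198922-63271692, minus strand) and *Tbx20* (ENSMUSG00000031965, chr9:24718138-24774303, minus strand) moved together across groups and were lower in iCre than in LacZ libraries in every same-numbered pair. Tcf21 is needed for the formation of cardiac fibroblasts from the epicardium, Gata4 acts with T-box factors on cardiac genes, and Tbx20 is a mostly repressive T-box factor of heart muscle, endocardium and valves that fibroblasts of the heart also express. For *Tcf21* and *Tbx20*, RefSeq gives a start on GRCm38.p6, and the 250 bases before each are shown because both genes were lower in iCre in every such pair; the corresponding stretch of *Hand2*, which was not, is shown for comparison. The windows are chr10:22820144-22820393 on the minus strand, chr9:24774304-24774553 on the minus strand and chr8:57320733-57320982 on the plus strand, all written 5′ to 3′ towards the start. Capitals mark matches, on either strand, to CANNTG (the E-box of bHLH factors), GATAA (GATA factors), GGTGTGA (T-box factors), TGTGGT (Runt factors), TGANTCA (AP-1), CAGAC (SMAD) or TGACGT (the cyclic AMP response element), and no 2 matches overlap.
Tcf21: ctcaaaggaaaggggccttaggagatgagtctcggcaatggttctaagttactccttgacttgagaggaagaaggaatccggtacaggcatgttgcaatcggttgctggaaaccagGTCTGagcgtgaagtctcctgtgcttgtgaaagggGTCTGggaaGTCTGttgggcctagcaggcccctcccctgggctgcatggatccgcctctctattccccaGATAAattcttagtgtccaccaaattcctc
Tbx20: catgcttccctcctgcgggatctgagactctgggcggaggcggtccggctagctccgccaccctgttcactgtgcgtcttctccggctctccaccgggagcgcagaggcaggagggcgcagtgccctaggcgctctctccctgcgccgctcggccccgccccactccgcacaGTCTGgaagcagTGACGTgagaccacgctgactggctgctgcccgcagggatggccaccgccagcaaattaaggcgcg
Hand2: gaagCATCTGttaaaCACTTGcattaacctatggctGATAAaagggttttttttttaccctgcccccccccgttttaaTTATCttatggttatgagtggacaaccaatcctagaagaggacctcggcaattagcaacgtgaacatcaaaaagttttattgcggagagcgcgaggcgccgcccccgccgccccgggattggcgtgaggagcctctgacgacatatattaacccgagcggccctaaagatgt
In these letters *Tcf21* had GATAA at −30 to −26 and 3 matches to CAGAC, at −134, −99 and −90, counted from the start. *Tbx20* had CAGAC at −78 and TGACGT at −66. *Hand2* had 2 E-boxes, at −246 and −235, and 2 matches to GATAA, at −214 and −172. Of 32817 windows of the same length, 66.2% held an E-box, 22.6% GATAA, 42.2% CAGAC, 6.46% TGACGT, 3.33% GGTGTGA, 14% TGTGGT and 6.75% TGANTCA, so each match is a description of the letters only.

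In LacZ CTRL libraries *Tcf21* was at 88.3, 24.3, 70.9 and 62.9 CPM (replicates 1 to 4), and in iCre CTRL libraries at 38.4, 9.21, 33.4 and 19.6 CPM. The ranges overlapped through replicate 2 of LacZ, the lowest of its group. *Tbx20* was at 357, 111, 326 and 327 CPM (LacZ CTRL) and at 182, 38.1, 107 and 103 CPM (iCre CTRL). *Gata4* was at 128, 71.4, 137 and 115 CPM and at 88.3, 30, 70.6 and 59.0 CPM. Each gene was lower in iCre in 4 of 4 pairs, by log2 fold changes of −1.31 (*Tcf21*, standard error 0.46), −1.40 (*Tbx20*, 0.46) and −0.88 (*Gata4*, 0.31). None passed the test (adjusted p = 0.254, 0.226 and 0.247), and all 3 passed it with the replicate block (adjusted p = 7.97e-08, 7.97e-08 and 2.45e-06) and without replicate 2 (adjusted p = 0.0153, 0.00786 and 0.0161).

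The same order held with each ligand. *Tcf21*, *Gata4* and *Tbx20* had less RNA in iCre in 20 of 20 same-numbered pairs over the 5 treatments, which was the case for 1.73% of the genes tested. In the same pairs, summed mural cell markers were higher in iCre in 19 of 20 and summed mesothelial markers in 20 of 20. Summed fibroblast markers were lower in 19 of 20, and summed leukocyte and macrophage markers in 17 of 20. The sums of Schwann cell, endothelial and tendon cell markers were lower in 15, 14 and 14, and that of cardiomyocyte markers was higher in 11 and lower in 9. Such sums follow their most abundant genes, as *Col3a1* of the fibroblast markers (mean 20265 CPM in LacZ CTRL) and *Rgs5* of the mural cell markers (327 CPM). They do not show that each marker of a list moved. The part of these lists in the difference was not tested. The log2 fold changes between iCre and LacZ lay from −1.71 to −0.53 for *Tcf21*, from −1.01 to −0.76 for *Gata4* and from −1.93 to −1.35 for *Tbx20*. Only *Tbx20* passed the test without the block, under IL-1β (−1.89, standard error 0.42, adjusted p = 0.0127) and TNFα (−1.93, standard error 0.47, adjusted p = 0.0126). With those ligands it was at 304, 131, 248 and 209 CPM (IL-1β) and 238, 86.3, 208 and 181 CPM (TNFα) for LacZ, and at 104, 20.8, 67.3 and 50.6 CPM and 94.1, 20.1, 39.1 and 30.8 CPM in iCre libraries. The IL-1β groups did not overlap, and the TNFα groups overlapped in the lowest LacZ and the highest iCre library. Without replicate 3 and with no block, 0 members passed between viruses with IL-1β (6.18% of all genes), *Tbx20* included. With the block, all 3 genes passed in 5 of 5 treatments, and the same counts were found with a correction for GC content added. Whether the difference between iCre and LacZ changed with a ligand was not shown for *Gata4* or *Tbx20* (interaction, adjusted p with the block between 0.0568 and 0.99). For *Tcf21* the interaction with IL-1β was 0.78 (log2 scale, with a standard error of 0.76 and adjusted p = 0.634), and 0.69 with the block (adjusted p = 0.0145). *Tcf21* with IL-1β was at 60.1, 17.1, 41.0 and 36.5 CPM (LacZ) and at 50.8, 9.0, 32.2 and 16.3 CPM (iCre), the smallest of its 5 differences.

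No ligand changed these 3 genes past the threshold in the fit without the block and with all replicates. Without replicate 2, also with no block, the count of members passing in LacZ rose from 4 to 8 with TGFβ. It rose from 2 to 6 with IL-1β and with TNFα. In iCre libraries it rose from 4 to 5 with TGFβ and from 2 to 3 with IL-1β and with TNFα. At 8 in LacZ, *Tcf21*, *Gata4* and *Tbx20* cannot all have failed with TGFβ, but the counts do not show which passed. Means of *Tcf21* in LacZ libraries were 61.6 ± 27.0 CPM (SD, n = 4) in CTRL, 73.6 ± 32.4 with bFGF, 34.4 ± 8.50 in TGFβ, 38.7 ± 17.6 in IL-1β and 49.3 ± 23.7 in TNFα. It was lower than in CTRL in 4 of 4 pairs with TGFβ (log2 fold change −0.83, standard error 0.34, adjusted p = 0.0865), IL-1β (−0.67, standard error 0.41, adjusted p = 0.299) and TNFα (−0.32, standard error 0.45, adjusted p = 0.668), and higher in 4 of 4 pairs with bFGF (0.27, standard error 0.43, adjusted p = 0.741). All 4 differences passed with the block (adjusted p = 0.00168, 6.9e-08, 0.000282 and 0.00966). In iCre libraries *Tcf21* was at 39.0, 3.14, 11.4 and 5.74 CPM with TNFα, which include its lowest level of all 40 libraries. Its log2 fold change there was −0.73 with TNFα (with the block −1.15, adjusted p = 0.00617) and −0.73 with TGFβ (with the block, adjusted p = 0.00305). *Gata4* was lower with TGFβ, IL-1β and TNFα in 4 of 4 pairs in LacZ (log2 fold change −0.50, −0.47 and −0.39) and in iCre (−0.44, −0.34 and −0.41), each passing with the block but not without it, as did −0.26 with bFGF in iCre (with the block, adjusted p = 0.0211). *Tbx20* was lower with TGFβ and TNFα in 4 of 4 pairs, by −0.51 and −0.66 in LacZ and by −0.78 and −1.19 in iCre, again past the test with the block but not without it, and with IL-1β by −0.80 in iCre (with the block, adjusted p = 2.48e-20) and by −0.32 in LacZ (with the block, adjusted p = 0.0544; with the GC correction added, 0.0402).

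*Gata6* (ENSMUSG00000005836, chr18:11052064-11085635, plus strand) was the lineage factor whose falls with ligands passed the test without the block and with all replicates in the fit. Gata6 overlaps in function with Gata4 in heart development. In LacZ CTRL libraries it was at 155, 87.2, 151 and 144 CPM, and with bFGF at 90.1, 59.1, 90.4 and 79.5 CPM. The difference passed the test (log2 fold change −0.73, standard error 0.20, adjusted p = 0.0402). *Gata6* fell also with TGFβ in LacZ (−0.54, standard error 0.19, adjusted p = 0.0498) and in iCre libraries (−0.68, standard error 0.19, adjusted p = 0.0157), with IL-1β in iCre (−0.71, standard error 0.21, adjusted p = 0.0444) and with TNFα in iCre (−0.95, standard error 0.23, adjusted p = 0.0132). Those with IL-1β and TNFα in LacZ (−0.37 and −0.51) and with bFGF in iCre (−0.56) passed with the block but not without it. Without replicate 3 and with no block, 0 members passed with IL-1β or with TNFα in iCre (7.55% and 14% of all genes), *Gata6* included. With RLE scaling in place of TMM, 3 members rather than 4 passed with TGFβ in LacZ, where *Gata6* lay nearest the threshold. All 8 comparisons of a ligand with CTRL thus had the same sign, as did those of *Gata4*. In contrast to *Tcf21*, its levels in CTRL were alike in both viruses, 134 ± 31.5 CPM (LacZ) and 132 ± 34.2 CPM (iCre; SD, n = 4), a log2 fold change of −0.04 with a standard error of 0.23. With the block, but not without it, iCre was lower than LacZ with TGFβ (−0.21), IL-1β (−0.39) and TNFα (−0.48). The interaction of TNFα with iCre was −0.46 (standard error 0.34, adjusted p = 0.421; with the block, adjusted p = 0.00296), and that of IL-1β passed with the block and the GC correction (−0.56, adjusted p = 0.00879) but not with the block alone (adjusted p = 0.0785).

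*Hand2* (ENSMUSG00000038193, chr8:57320983-57324633, plus strand), a bHLH factor of the developing heart and limb, varied with the replicate number far more than with treatment. It was at 52.0, 20.2, 91.9 and 77.1 CPM in LacZ CTRL and at 58.9, 18.7, 102 and 74.3 CPM in iCre CTRL libraries. iCre was higher in 10 and lower in 10 of the 20 pairs. None of its 17 comparisons passed the test. TNFα in LacZ gave 38.8, 14.5, 51.7 and 45.4 CPM, lower than CTRL in 4 of 4 pairs (log2 fold change −0.69, standard error 0.47, adjusted p = 0.35; with the block, adjusted p = 2.61e-06; without replicate 2, adjusted p = 0.0181). In iCre libraries TNFα gave −0.32 (with the block, adjusted p = 0.0412). With TNFα, iCre exceeded LacZ in 4 of 4 pairs (0.42, standard error 0.47, adjusted p = 0.545), which passed with the block (0.37, adjusted p = 0.0271) but not with the GC correction added (0.09, adjusted p = 0.599). With that correction and the block, *Hand2* was instead lower in iCre than in LacZ with bFGF (−0.26, adjusted p = 0.0257), TGFβ (−0.33, adjusted p = 0.0241) and IL-1β (−0.24, adjusted p = 0.016), and lower with TGFβ than in CTRL in iCre (−0.50, adjusted p = 0.00417), none of which passed without the correction. The comparison of *Hand2* between viruses thus depended on the GC correction. Exons of *Hand2* overlap those of *Hand2os1* on the other strand over 461 bp, and since the strand setting of the counting is not known, reads there cannot be assigned to a strand. Overlaps of 93 bp (*Gata6*), 106 bp (*Runx1*) and 970 bp (*Tbx18*) with opposite-strand genes also exist.

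*Tbx18* (ENSMUSG00000032419, chr9:87702800-87731260, minus strand), a T-box factor of epicardium and mural progenitors, rose with TNFα in LacZ libraries, and its response to TNFα differed between the viruses. It was at 58.7, 30.7, 51.9 and 48.5 CPM in LacZ CTRL and at 93.0, 62.9, 82.9 and 75.9 CPM with TNFα, so that the groups did not overlap. That rise passed the test (log2 fold change 0.73, standard error 0.20, adjusted p = 0.0248). In iCre libraries it was at 43.0, 36.1, 52.4 and 45.7 CPM in CTRL and at 49.6, 27.0, 43.4 and 34.8 CPM with TNFα (−0.16, standard error 0.19, adjusted p = 0.568). The difference between those responses, the interaction, was −0.90 (standard error 0.29, adjusted p = 0.0467). It was the only interaction of a member to pass, and it passed too with the block (−0.95, adjusted p = 0.000125), with the block and the GC correction (adjusted p = 0.000239) and without replicate 2 (adjusted p = 0.013), but not without replicate 3 (−0.90, standard error 0.37, adjusted p = 0.202) or 4 (−0.87, standard error 0.39, adjusted p = 0.237), nor with all 40 libraries in the fit (−0.92, standard error 0.34, adjusted p = 0.0571), nor with the GC correction and no block (−0.86, adjusted p = 0.067). With TNFα *Tbx18* was lower in iCre than in LacZ libraries (−1.0, standard error 0.19, adjusted p = 0.00354). TGFβ gave 113, 47.0, 73.1 and 68.1 CPM (LacZ) and 52.7, 27.1, 44.6 and 38.3 CPM (iCre), and IL-1β gave means of 57.7 ± 13.7 and 42.3 ± 9.58 CPM. The increases in LacZ over CTRL with TGFβ (0.69, adjusted p = 0.0743) and IL-1β (0.29, adjusted p = 0.397), and the interaction with TGFβ (−0.82, standard error 0.36, adjusted p = 0.29), passed with the block (adjusted p = 0.000271, 0.00222 and 0.0043). With TGFβ, *Tbx18* was lower in iCre than in LacZ in 4 of 4 pairs (−0.92, standard error 0.26, adjusted p = 0.0583; with the block, 2.36e-07), as it was under IL-1β (−0.46, adjusted p = 0.175; with the block, 0.000501). bFGF left it at 46.7 ± 10.9 CPM in LacZ, near the 47.4 ± 12.0 CPM of CTRL (SD, n = 4), and its interaction with IL-1β passed with neither fit.

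*Wt1* (ENSMUSG00000016458, chr2:105126529-105173616, plus strand), the zinc-finger factor of epicardium, was near the limit of detection. It had 355 counts in all 40 libraries together, at most 42 in any of them, and its highest level was 1.02 CPM. In each group replicate 1 was highest, at 0.938 CPM in LacZ CTRL (the others at 0.176, 0.106 and 0.581 CPM) and at 0.458 CPM in iCre CTRL (0.0612, 0.219 and 0.0348 CPM). No comparison of *Wt1* passed with or without the block. The mesothelial markers were low as well, as given above.

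*Meox1* (ENSMUSG00000001493, chr11:101877510-101894374, minus strand) had the largest change of the 10 genes. Meox1 is a homeobox factor that has been tied to the profibrotic state of heart fibroblasts. It was at 1.61, 2.35, 2.06 and 2.67 CPM in LacZ CTRL libraries and at 86.5, 31.9, 54.5 and 63.0 CPM with TGFβ, a 27.6-fold difference (log2 fold change 4.79, standard error 0.31, adjusted p = 3.46e-06). In iCre libraries it was at 0.916, 1.84, 1.46 and 2.99 CPM in CTRL and at 52.3, 31.5, 42.8 and 96.9 CPM with TGFβ, a 31.7-fold difference (4.99, standard error 0.44, adjusted p = 1.17e-05). Neither pair of groups came near overlap, and the responses did not differ by their test (interaction 0.18, standard error 0.53, adjusted p = 0.975). bFGF also raised it, 4.45-fold to 6.74, 7.70, 10.8 and 12.9 CPM in LacZ (adjusted p = 0.00113) and 3.61-fold in iCre libraries (adjusted p = 0.0349). IL-1β raised it 2.07-fold in LacZ (adjusted p = 0.0152), and in iCre it gave 3.50, 2.36, 3.07 and 9.04 CPM, 1.34 on the log2 scale (adjusted p = 0.0888; with the block, 9.21e-10). TNFα raised *Meox1* 3.31-fold in iCre libraries, to 3.56, 6.68, 5.0 and 8.04 CPM (adjusted p = 0.00716), and gave 1.66, 3.63, 2.40 and 4.85 CPM in LacZ libraries (log2 fold change 0.53, adjusted p = 0.29; with the block, 0.0369, and with the GC correction added, 0.0535). That difference of responses did not pass (interaction 1.19, standard error 0.52, adjusted p = 0.149) and passed with the block (1.31, adjusted p = 0.000442). Between viruses, *Meox1* passed with the block but not without it, lower in iCre with bFGF (−0.57, adjusted p = 0.00329) and higher with TNFα (0.96, adjusted p = 0.00151).

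*Runx1* (ENSMUSG00000022952, chr16:92601466-92826149, minus strand) rose with TGFβ, IL-1β and TNFα in LacZ libraries. Runx1 binds DNA with its partner Cbfb and is best known from blood cell formation. RefSeq gives it a distal and a proximal start. The 250 bases before the distal start, chr16:92826075-92826324 on the minus strand, are shown because this gene answered most ligands. Capitals again mark matches.
Runx1: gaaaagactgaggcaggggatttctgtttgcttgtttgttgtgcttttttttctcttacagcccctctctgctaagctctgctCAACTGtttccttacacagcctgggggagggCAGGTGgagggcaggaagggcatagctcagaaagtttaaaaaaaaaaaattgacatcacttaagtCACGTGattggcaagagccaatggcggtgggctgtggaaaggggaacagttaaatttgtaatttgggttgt
It held 3 E-boxes, at −167, −136 and −71, and no match to the other letters searched, and the 250 bases before the proximal start held none of them. *Runx1* was at 17, 32.0, 15.8 and 17.5 CPM in LacZ CTRL libraries, 118, 122, 176 and 186 CPM with TGFβ, 118, 94.2, 96.0 and 86.3 CPM with IL-1β and 54.3, 56.1, 44.8 and 41.7 CPM with TNFα. None of these ligand groups overlapped CTRL. The rises were 7.42-fold (adjusted p = 1.26e-05), 4.86-fold (adjusted p = 8.85e-05) and 2.41-fold (adjusted p = 0.00261). In iCre libraries *Runx1* was at 16.3, 41.1, 20.5 and 24.2 CPM in CTRL, and it rose 4.77-fold with TGFβ (adjusted p = 6.97e-05) and 2.31-fold with IL-1β (48.0, 76.9, 51.7 and 56.2 CPM, adjusted p = 0.0113). With TNFα the log2 fold change in iCre was 0.61 (adjusted p = 0.115; with the block, 0.00219). With IL-1β *Runx1* was lower in iCre than in LacZ libraries in 4 of 4 pairs, 1.72-fold on average (log2 fold change −0.78, standard error 0.15, adjusted p = 0.00638), and the groups did not overlap. In that comparison 0 members passed without replicate 3, *Runx1* included. Its response to IL-1β was smaller in iCre by 1.08 on the log2 scale, an interaction of −1.08 (standard error 0.36, adjusted p = 0.0881; with the block, 0.00176; without replicate 2, 0.00181). bFGF gave 0.39 in LacZ and 0.45 in iCre libraries, which passed with the block but not without it. So did a higher level in iCre than in LacZ in CTRL (0.30; with the block, adjusted p = 0.0447) and with bFGF (0.39; with the block, 0.0135), opposite in sign to the difference with IL-1β. With TGFβ it was lower in iCre (−0.36; with the block, 0.00416), and its interaction with TNFα was −0.66 (adjusted p = 0.262; with the block, 0.045). Neither passed with the GC correction added (adjusted p = 0.0919 and 0.0756).

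*Scx* (ENSMUSG00000034161, chr15:76457452-76459458, plus strand) rose with TGFβ alone. Scleraxis drives collagen and other tendon genes, and its exons lie inside *Bop1*, a gene of the other strand, in a stretch where *Bop1* has no exon. It was at 0.960, 1.65, 2.13 and 1.48 CPM in LacZ CTRL libraries and at 7.23, 42.7, 14.9 and 6.36 CPM with TGFβ, 11.5-fold higher (log2 fold change 3.53, standard error 0.60, adjusted p = 0.00108). Without replicate 2, which was highest, the log2 fold change was 2.64 (adjusted p = 0.000166). In iCre libraries TGFβ gave 10.7, 50.9, 21 and 14.1 CPM against 1.54, 1.71, 2.49 and 2.22 CPM in CTRL (3.61, standard error 0.47, adjusted p = 0.000151; without replicate 2, 2.88 and adjusted p = 5.81e-06). *Scx* was higher in iCre than in LacZ in 20 of 20 same-numbered pairs, as were 2.5% of the genes tested, with the limits given above for such pairs and shares. The difference of *Scx* between viruses passed the test under IL-1β (1.29, standard error 0.37, adjusted p = 0.0404) and TNFα (1.13, standard error 0.37, adjusted p = 0.0454), where the levels were low, at 0.594 to 1.74 CPM (LacZ) and 1.27 to 3.89 CPM (iCre). Without replicate 2 the differences were 1.28 and 0.96 with standard errors of 0.44 and 0.35, and neither passed (adjusted p = 0.0721 and 0.0768). With TGFβ the difference between viruses was 0.41 (adjusted p = 0.787; with the block, 0.00185), and the interaction with IL-1β 0.93 (adjusted p = 0.298; with the block, 0.0431). Neither passed with the GC correction added (adjusted p = 0.213 and 0.192). With IL-1β in LacZ it was lower than in CTRL in 4 of 4 pairs (−0.74, adjusted p = 0.138; with the block, 0.0139). Of the 4 tendon cell markers, 0 passed between viruses in any treatment (with the block, 1 was lower in each of CTRL, bFGF and TNFα and 1 higher in TGFβ), and 2 rose with TGFβ in each virus. Their sum was lower in iCre in 4 of 4 pairs in CTRL, bFGF and TNFα, and higher in 4 of 4 with TGFβ.

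**Figure D3:**
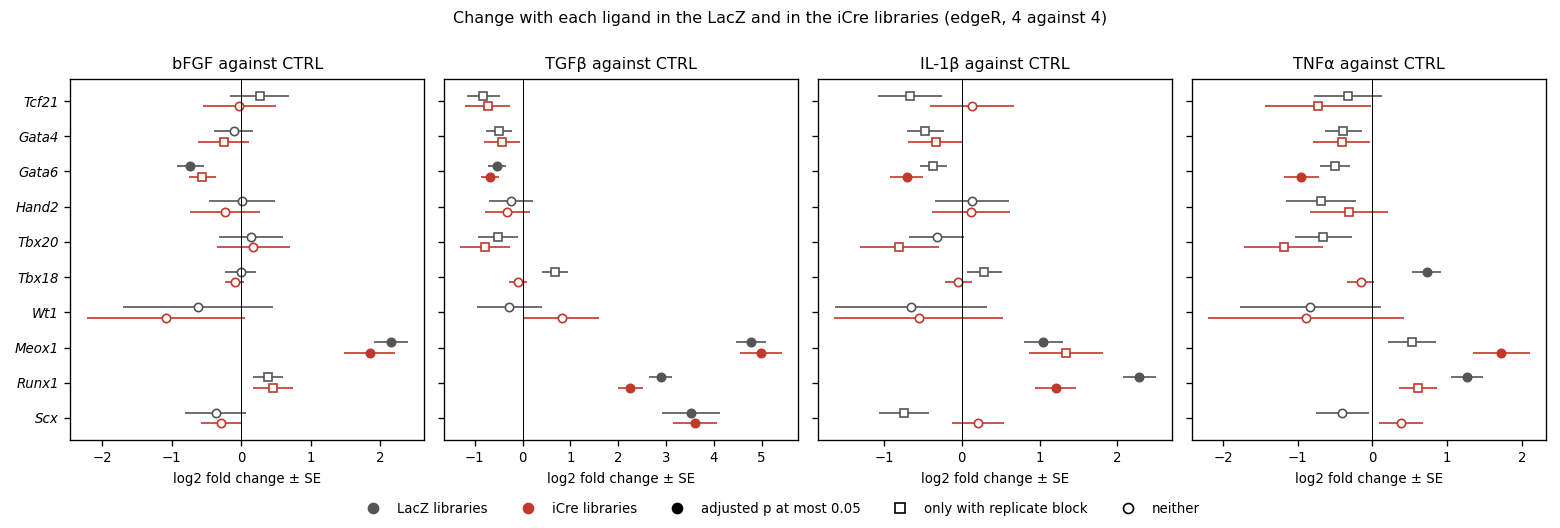
Log2 fold change of each gene with a ligand against CTRL (horizontal axis, bars are standard errors, 4 libraries against 4), in LacZ (grey) and iCre (red) libraries. Filled circles passed the edgeR test at an adjusted p of at most 0.05, open squares only with the replicate block. *Meox1*, *Runx1* and *Scx* stand far to the right with TGFβ at 4.79, 2.89 and 3.53 in LacZ, *Gata6* lies left of 0 in all 8 comparisons, and *Tbx18* lies right of 0 in LacZ but not in iCre with TNFα.

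Counted over the members, the calls read as follows against those of all 25210 genes. In LacZ libraries bFGF changed 2 of 10 (11.6% of all genes), TGFβ 4 of 10 (36.9%), IL-1β 2 of 10 (20.7%) and TNFα 2 of 10 (21.3%). In iCre libraries bFGF changed 1 of 10 (2.42%), TGFβ 4 of 10 (37.4%), IL-1β 2 of 10 (16.3%) and TNFα 2 of 10 (27.0%). With the block, the counts in LacZ were 4 (27.3% of all genes), 8 (42.0%), 7 (33.5%) and 8 (35.5%), and in iCre 4 (16.7%), 7 (41.5%), 5 (33.8%) and 7 (36.1%). Between viruses, 0 of 10 passed in CTRL (0.0754% of all genes), 0 with bFGF (0.0%), 0 with TGFβ (8.37%), 3 with IL-1β (16.1%: *Tbx20*, *Runx1*, *Scx*) and 3 with TNFα (27.3%: *Tbx20*, *Tbx18*, *Scx*). At an unadjusted p of at most 0.05 there were 3, 3 and 4 members in the first 3, and DESeq2 called 1, 0 and 3 (8.46%, 3.09% and 24.8% of the 15642, 15556 and 15112 genes to which it gave an adjusted p, a smaller set than the 25210). With the block, 4 passed in CTRL (14.5% of all genes), 5 with bFGF (13.9%), 7 in TGFβ (20.8%), 7 in IL-1β (29.5%) and 8 in TNFα (32.2%). The share of members called with the block was above that of all genes in each of these 13 comparisons of a ligand or of the viruses, whereas without the block it was above it in 7, below it in 5 and equal in 1. The 25210 genes include many with few counts, which seldom pass, so their share is low for genes at most members' levels. With a stricter filter on low counts and no block, TGFβ and IL-1β in LacZ changed 59.2% and 37.5% of the genes kept. Between viruses with TNFα it was 47.4%, and 4, 2 and 4 members passed in these comparisons. No test set the members against other genes. Among the interactions, 1 passed with TNFα (16.1%) and 0 with bFGF (0.0%), TGFβ (4.51%) and IL-1β (7.71%). DESeq2 called 0, 0 and 1 in the last 3 (0.0%, 15.8% and 17.5% of the 25046, 13852 and 16795 genes with an adjusted p in DESeq2), and 0, 1 and 1 members had an unadjusted p of at most 0.05. With the block, 0 interactions passed with bFGF (0.0%), 1 for TGFβ (8.04%), 3 for IL-1β (16.9%) and 4 for TNFα (25.1%). The median log2 fold change between iCre and LacZ over the 10 members was −0.20 in CTRL, −0.37 with bFGF, −0.28 in TGFβ, −0.49 in IL-1β and −0.69 in TNFα, beside medians of all genes between −0.03 and 0.04.

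**Figure D4:**
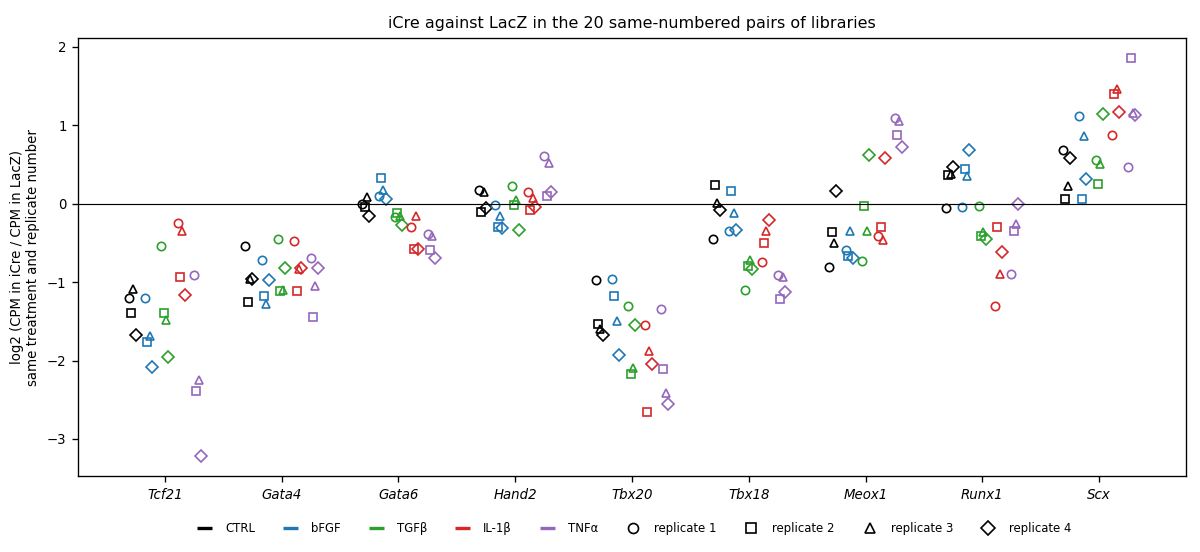
Log2 ratio of CPM in iCre to CPM in LacZ libraries of the same treatment and replicate number, for 9 genes (*Wt1* is left out, having libraries at 0), with colour for the treatment and shape for the replicate number. All 20 points lie below 0 for *Tcf21*, *Gata4* and *Tbx20* and above 0 for *Scx*, and *Hand2* has 10 on each side.

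Across the 10 group means, *Tcf21*, *Gata4* and *Tbx20* had Pearson correlations of log2 CPM between 0.92 and 0.95 with one another, and *Hand2* had 0.03 to 0.10 with them. Same-numbered libraries deviated together, so the 10 points are not independent and the correlations are descriptions. Around the group means, *Tcf21*, *Gata4*, *Gata6*, *Hand2*, *Tbx20* and *Tbx18* all correlated at 0.78 or more over the 40 libraries, which include the low replicate 2. Without replicate 2, those of *Hand2* with the other 5 lay from −0.30 to 0.08, and those among the other 5 from 0.39 to 0.89. *Meox1* and *Scx* correlated at 0.89 over group means and at −0.43 around them (−0.08 without replicate 2), and *Runx1* had −0.69 with *Gata6* around them (−0.49 without replicate 2).

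**Figure D5:**
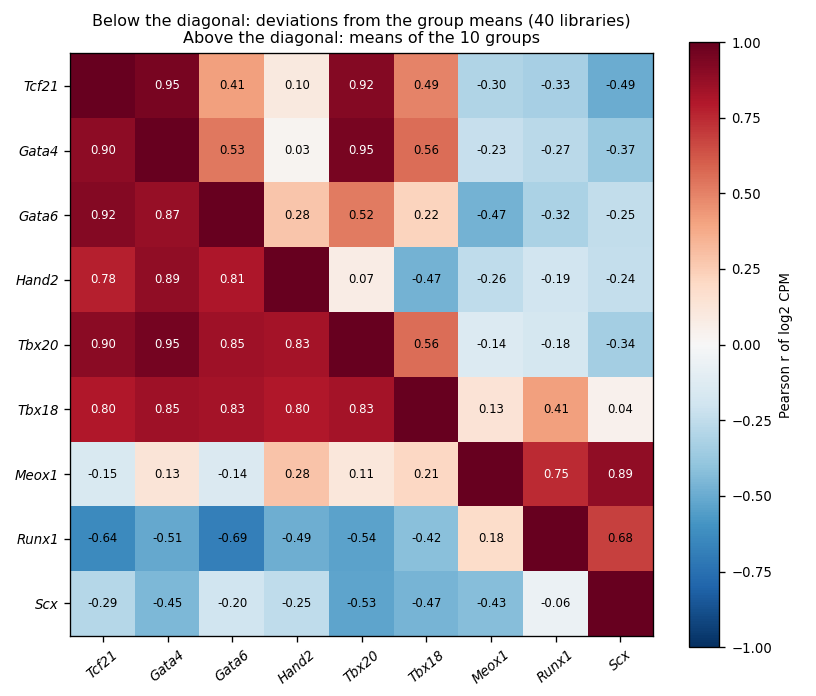
Pearson correlation of log2 CPM between genes, above the diagonal over the means of 10 groups and below it over deviations of the 40 libraries from their group means; red is positive and blue negative. *Tcf21*, *Gata4* and *Tbx20* are correlated on both sides, whereas *Gata6*, *Hand2* and *Tbx18* join them mainly below the diagonal, at 0.78 or more.

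Among 10567 protein-coding genes averaging 5 CPM or more, those whose 10 group means were most like a member's were *Col14a1* (r = 0.96) and *Gata4* (0.95) for *Tcf21*, *Bmp6* (0.96) and *Shox2* (0.96) for *Gata4*, *Bmp6* (0.97) and *Tmem18* (0.97) for *Tbx20*, *Zfp39* (0.97) and *Prkaa2* (0.95) for *Gata6*, and *Rnf122* (0.96) and *Prkx* (0.93) for *Tbx18*. *Col14a1* encodes a fibril-associated collagen and *Bmp6* a ligand of the BMP family. For *Hand2* they were *Gnao1* (0.90) and *Emsy* (0.88), for *Meox1* *Timm17a* and *Idh3a* (both 0.99), for *Runx1* *Tmem248* (0.99) and *Slc41a2* (0.98), and for *Scx* *Cdyl* and *Limk2* (both 0.99). Over the 40 single libraries *Col14a1* again led for *Tcf21* (0.96), and other genes led for the other members.

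In the order of the 10 group means, all 9 neighbouring groups overlapped in range for 7 members. For *Meox1*, *Runx1* and *Scx*, 8 of 9 did. For *Tcf21* the order began with LacZ bFGF and LacZ CTRL, and for *Meox1*, *Runx1* and *Scx* both TGFβ groups came first.

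For the lists that follow, the shares of all genes called in either direction were 36.9% and 37.4% with TGFβ (LacZ and iCre), 20.7% and 21.3% with IL-1β and TNFα in LacZ, and 16.1% and 27.3% between viruses under IL-1β and TNFα. With the block they were 42.0% and 41.5%, 33.5% and 35.5%, and 29.5% and 32.2%. Of 17 paralogs, 15 were tested, and with TGFβ in LacZ 1 rose and 1 fell (with the block, 5 and 3). *Runx2*, the bone-forming relative of *Runx1*, rose from 17.9 ± 4.64 CPM to 40.2 ± 6.26 CPM with TGFβ (SD, n = 4; 1.19 on the log2 scale, adjusted p = 0.000323). *Meox2* moved opposite to *Meox1* with TGFβ, and in the same direction with IL-1β in LacZ libraries. It fell with TGFβ in LacZ (−1.85, adjusted p = 0.00418) and in iCre libraries (−1.98, adjusted p = 0.00385), and rose with IL-1β in LacZ from 4.74 ± 1.89 to 13 ± 3.54 CPM (1.47, adjusted p = 0.00618). It was lower in iCre than in LacZ with IL-1β (−2.21, adjusted p = 0.000621) and with TNFα (−2.75, adjusted p = 0.00248). *Gata2*, a GATA factor of blood and endothelium, was higher in iCre with TNFα (1.03, adjusted p = 0.0345).

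Of 11 DNA-binding partners and co-factors, 2 rose and 3 fell with TGFβ in LacZ (with the block, 3 and 5), and 1 rose and 3 fell with IL-1β (with the block, 2 and 5). Those that fell include the Id proteins, which hold bHLH factors off DNA. *Id2* was at 60.8 ± 13.4 CPM in LacZ CTRL libraries and at 10.4 ± 2.46 CPM with TGFβ (−2.54, adjusted p = 1.12e-05) and 23.6 ± 5.67 CPM with IL-1β (−1.36, adjusted p = 0.00152). *Id1* fell with TGFβ, IL-1β and TNFα in LacZ (−1.38, −1.85 and −1.61), and was higher in iCre than in LacZ libraries with IL-1β (1.27, adjusted p = 0.000395) and TNFα (1.33, adjusted p = 0.00529), while *Id2* was lower with both (−0.83 and −1.59). Between the viruses without a ligand, *Id3* of this list passed the test, 235 ± 18.0 CPM (LacZ CTRL) and 119 ± 17.7 CPM (iCre CTRL; −1.0, adjusted p = 0.0263), a comparison in which 0.0754% of all genes passed, and with the block 4 genes of the list were higher and 2 lower in iCre. *Cbfb*, the partner of Runx1, rose with TGFβ in LacZ from 59.0 ± 8.93 to 102 ± 20.4 CPM (0.82, adjusted p = 0.00116).

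Of 19 other mesenchymal transcription factors, 6 rose and 6 fell with TGFβ in LacZ, and 4 rose and 6 fell in iCre libraries. *Foxc2*, a forkhead factor of mesenchyme, rose in both (1.86 and 1.82), and *Osr1* fell in LacZ with bFGF, TGFβ and IL-1β (−0.94, −0.87 and −1.01). *Prrx1*, a homeobox factor of limb and stromal mesenchyme, was lower in iCre than in LacZ with IL-1β, at 313 ± 20.8 against 649 ± 40.5 CPM (−1.07, adjusted p = 0.000106). Of 8 other cardiac factors tested, 2 rose and 2 fell with TGFβ in each virus (with the block, 4 and 3), among them *Mef2d* (0.84 in LacZ and 0.95 in iCre) and *Mef2c* (−0.86 and −1.24). Of 12 genes of activated fibroblasts, 10 rose with TGFβ in LacZ and 11 in iCre libraries, with median log2 fold changes of 2.71 and 2.93 beside −0.17 and −0.11 for all genes. Fibroblast markers, 9 in all, were mixed with TGFβ, with 3 higher and 3 lower in LacZ. In iCre against LacZ, 3 of the 9 were lower with IL-1β (with the block, 6 lower and 1 higher), and 5 were lower and 2 higher with TNFα. Of the 8 mural cell markers, iCre had 2 higher with IL-1β (3 with the block), and with TNFα 3 higher and 1 lower. Of the 8 mesothelial markers tested, 4 were higher with each (with the block, 6 with IL-1β, and 4 higher and 1 lower with TNFα). With the block, 6 of the 9 fibroblast markers were also lower and 2 higher in iCre in CTRL, and 4 were lower with bFGF and 4 with TGFβ (14.5%, 13.9% and 20.8% of all genes with the block, in either direction), the comparisons in which *Tcf21*, *Gata4* and *Tbx20* passed with the block. These lists moved in the comparisons in which *Tbx20* and *Scx* passed, and their part in those results was not tested.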

How the data were processed

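RNA in 40 samples of TAK1fl/fl mouse cardiac fibroblasts (10 groups of virus and ligand, 4 replicates each) was sequenced from single ends. The authors aligned the reads with STAR to mm10 and deposited raw counts per gene from HTSeq (0.10.0), after quality control with FastQC (0.10.1), with both versions as in the submitters' processing notes; the study's methods give another FastQC release. The annotation release and strand setting are not given in the sources used here, and these name different library kits. Groups came from the labels. Libraries held 25360947 to 66160732 counts, and the precision of low genes such as *Wt1* is limited by counting.

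Counts were tested with edgeR (4.0.16, quasi-likelihood, TMM, R 4.3.3) on the 25210 genes with at least 10 counts over the libraries, with only the compared groups in each fit and Benjamini-Hochberg adjustment over all genes at a threshold of 0.05. There were 17 comparisons: a ligand against CTRL in each virus, iCre against LacZ in each treatment, and their interactions. The study describes its 4 replicates per group as biological replicates from male mice, and the labels give only their numbers. Same-numbered libraries deviated together from their group means in every pair of each comparison (correlation at least 0.311 over 10774 genes). Over all pairs of groups, same-numbered libraries correlated at 0.57 on average (lowest 0.033), and different-numbered ones at −0.16 (highest 0.46). The numbers were therefore taken to pair the samples, although the ranges overlap. The pairing comes from the labels' replicate numbers, and the replicate block fit adds it. Correlations used log2 of CPM plus a pseudocount of 0.5. Gene IDs, of which 52133 of 55414 were in GENCODE M21, gave names and GRCm38 coordinates. Promoter letters are from RefSeq (GRCm38.p6), which had entries for 5 of the 10 members. No entry was used for *Gata4*, *Gata6*, *Wt1*, *Meox1* or *Scx*. Alternatives were RLE scaling, other filters, leaving out each replicate, a GC correction, DESeq2 (1.42.0) and a fit of all 40 libraries. Scripts were tested on simulated data. All 10 members were followed in all comparisons, and a comparison not given passed neither with nor without the block. Of each list, up to 2 genes per comparison and direction were named, by size of change, and for each member the 2 genes most like it. The members and lists were chosen with earlier results of these data known.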

Additional observations from a re-analysis of the deposited data

Results flagged for a closer look

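Single libraries stood far from the other 3 of their group in 11 cases over the 10 genes and 10 groups. Chance gives such a gap in about 1 in 20 independent sets, and these sets are not independent, since replicate numbers run across groups and 10 of the 11 cases are replicate 1 or 2. Replicate 2 was lowest for *Gata6* in LacZ CTRL (87.2 CPM) and for *Tbx20* in LacZ CTRL (110.6 CPM) and LacZ TGFβ (74.1 CPM), and highest for *Runx1* in LacZ CTRL (31.95 CPM) and LacZ bFGF (32.9 CPM). Replicate 1 was highest for *Wt1* in LacZ bFGF (1.02 CPM), iCre bFGF (0.315 CPM), iCre TGFβ (0.761 CPM), iCre IL-1β (0.411 CPM) and iCre TNFα (0.407 CPM). Replicate 4 was highest for *Meox1* in iCre IL-1β (9.04 CPM).

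The response of *Tbx18* to TNFα differed between iCre and LacZ libraries by the test of the difference itself, with an interaction of −0.90 on the log2 scale (edgeR, adjusted p = 0.0467).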

How the results depend on the processing

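Counts of the 10 members past the threshold rose in most comparisons when the replicate block that pairs same-numbered libraries was added. In LacZ libraries the counts with the block were 4 for bFGF, 8 for TGFβ, 7 for IL-1β and 8 for TNFα, and 4, 8, 8 and 7 with the block and the GC correction (27.7%, 42.5%, 34% and 36.2% of all genes). In iCre libraries they were 4, 7, 5 and 7 with the replicate block, and 4, 8, 5 and 7 with the GC correction added (16.7%, 41.1%, 29.6% and 34.2%). Between viruses the block gave 4 in CTRL, 5 in bFGF, 7 in TGFβ, 7 in IL-1β and 8 in TNFα, and with the GC correction added 4, 6, 6, 8 and 7 (14.9%, 14.1%, 9.05%, 22.9% and 28.3%). Interactions passing with the block numbered 1 for TGFβ, 3 for IL-1β and 4 for TNFα, and 1, 3 and 3 with the GC correction added (2.96%, 12.1% and 21.5%). Leaving out 1 replicate at a time gave 1 to 3, 3 to 8, 1 to 6 and 1 to 6 members in LacZ (bFGF, TGFβ, IL-1β, TNFα), and 0 to 2, 3 to 5, 0 to 3 and 0 to 3 in iCre libraries. Between viruses it gave 0 to 3 in CTRL and in bFGF, 0 to 4 in TGFβ and in IL-1β, and 1 to 5 in TNFα, and for the interactions 0 to 1 with IL-1β, 0 to 1 with TNFα and 0 with bFGF and TGFβ. The highest of each of these ranges was reached without replicate 2. Leaving out replicate 1 gave the same highest count with TNFα in iCre (3) and in the interaction with TNFα (1). The share of all genes called moved as well. It ran from 1.32% to 18.2%, 25.9% to 37.1%, 9.22% to 23.4% and 10.5% to 23.5% in LacZ, from 0% to 12.7%, 27% to 40%, 6.85% to 18.1% and 14% to 25.4% in iCre, and between viruses up to 2.78% in CTRL and 1% in bFGF, from 2.01% to 12.5% in TGFβ, 6.18% to 16.6% in IL-1β and 13% to 27.1% in TNFα. For the interactions it reached 0.00397% (bFGF), 5.27% (TGFβ), 6.85% (IL-1β) and 15.4% (TNFα). The highest share came without replicate 2, except between viruses with TNFα and in the interaction with TNFα, where it came without replicate 1. DESeq2 called 1 member between viruses in CTRL, 3 with TGFβ and 5 with TNFα, and 1 in the interaction with IL-1β (8.46%, 24.8%, 40.6% and 17.5% of the genes with an adjusted p there). With all 40 libraries in the fit, the counts were 1 for IL-1β in LacZ, 2 between viruses with TGFβ, 1 for the interaction with IL-1β and 0 for that with TNFα (21.6%, 14.2%, 7.82% and 16.4% of all genes). Both other filters on low counts gave 1 between viruses with TGFβ (20.1% and 7.85% of the genes they kept), and the GC correction without a block gave 0 for the interaction with TNFα (12.2%). RLE scaling gave 3 for TGFβ in LacZ and 2 between viruses with TNFα (37.1% and 26.5%). The cause was not tested. *Hand2* between viruses with IL-1β changed from 0.03 to −0.24 on the log2 scale with the block and the GC correction (adjusted p = 0.016). A further 49 values of opposite sign passed in neither fit, and 2 values of *Wt1* had no adjusted p in DESeq2. Depth limits *Wt1*, with at most 42 counts in a library.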
